A study of Arabidopsis thaliana with 28 samples.

Results

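The transcripts of 10 genes that make, release or destroy the hormone abscisic acid were followed in nuclear and cytoplasmic RNA of Arabidopsis thaliana rosettes. The genes were taken by locus from a deposited table of 30901 genes, and all 10 were found in it: ABA1 (AT5G67030), NCED3 (AT3G14440), ABA2 (AT1G52340), ABA3 (AT1G16540), AAO3 (AT2G27150), BGLU18 (AT1G52400) and CYP707A1 to CYP707A4 (AT4G19230, AT2G29090, AT5G45340 and AT3G19270). The study looked for defects of RNA export in mos11, a mutant of the mRNA export factor MOS11. Its 4 groups were nuclei of mos11 (5 libraries), nuclei of the wild type Col-0 (4 libraries), cytoplasm of mos11 (5 libraries) and cytoplasm of Col-0 (4 libraries). All plants were 14 days old, none of the groups was treated, and the labels name the mutant only as mos11, without its allele. Whether replicates are separate plantings is not in the labels, so a p-value here is set by variation among libraries of a group, which may be technical only.

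Abscisic acid is made from carotenoids. In the plastid, ABA1 (zeaxanthin epoxidase) makes the epoxycarotenoid precursors and NCED3, a dioxygenase known for its induction by drought, cleaves them to xanthoxin in the step usually held to limit synthesis. In the cytosol ABA2, a short-chain dehydrogenase, turns xanthoxin into abscisic aldehyde, and AAO3, an aldehyde oxidase that needs the molybdenum cofactor sulfurase ABA3, oxidises the aldehyde to the hormone. The 4 CYP707A cytochromes P450 hydroxylate abscisic acid and so start its breakdown, and BGLU18, a glucosidase of the endoplasmic reticulum, frees the hormone from its stored glucose ester.

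Upstream sequences are shown for 3 members that passed the test between genotypes in nuclei without overlap (CYP707A2 and ABA1 higher in mos11, NCED3 lower). The nuclear levels of CYP707A4 did not overlap either, but CYP707A4 did not pass the test and its sequence is not shown. Sequences are also shown for CYP707A1 and CYP707A3, the closest pair of the breakdown family. Each is the 250 bases before the gene's annotated start in RefSeq's TAIR10.1, read 5′ to 3′ on the gene's strand. Capitals mark matches, on either strand, to ACGTG (core of the abscisic acid response element) or CACGTG (G-box, which contains ACGTG). The windows are chr2:12499724-12499973 (minus strand) for CYP707A2, chr5:26757403-26757652 (minus strand) for ABA1, chr3:4834016-4834265 (minus strand) for NCED3, chr4:10521009-10521258 (plus strand) for CYP707A1 and chr5:18371022-18371271 (minus strand) for CYP707A3.
CYP707A2: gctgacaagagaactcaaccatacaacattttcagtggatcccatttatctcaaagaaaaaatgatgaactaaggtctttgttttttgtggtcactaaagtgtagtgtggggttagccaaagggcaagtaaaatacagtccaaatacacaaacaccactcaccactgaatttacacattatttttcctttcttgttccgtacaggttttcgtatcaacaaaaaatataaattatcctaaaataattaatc
ABA1: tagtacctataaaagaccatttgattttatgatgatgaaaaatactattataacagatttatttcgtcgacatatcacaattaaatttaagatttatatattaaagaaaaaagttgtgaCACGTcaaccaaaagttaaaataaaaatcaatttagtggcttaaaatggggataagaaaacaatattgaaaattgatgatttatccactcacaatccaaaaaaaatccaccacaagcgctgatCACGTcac
NCED3: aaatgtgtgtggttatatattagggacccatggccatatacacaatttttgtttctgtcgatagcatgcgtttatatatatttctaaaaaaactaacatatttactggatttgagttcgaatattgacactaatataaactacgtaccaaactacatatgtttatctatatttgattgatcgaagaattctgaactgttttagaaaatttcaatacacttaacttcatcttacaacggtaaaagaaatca
CYP707A1: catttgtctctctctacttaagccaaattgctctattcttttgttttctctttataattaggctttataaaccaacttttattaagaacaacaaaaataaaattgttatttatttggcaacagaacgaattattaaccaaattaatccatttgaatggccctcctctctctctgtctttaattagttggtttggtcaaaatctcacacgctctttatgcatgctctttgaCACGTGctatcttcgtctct
CYP707A3: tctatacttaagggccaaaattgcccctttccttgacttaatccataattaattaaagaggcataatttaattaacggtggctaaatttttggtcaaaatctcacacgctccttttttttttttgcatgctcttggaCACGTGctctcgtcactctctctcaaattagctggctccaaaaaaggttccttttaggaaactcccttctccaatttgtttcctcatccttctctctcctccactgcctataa
The windows of CYP707A2 and NCED3 held none of the 4 motifs searched, which were the ones above, CCGAC (core of the dehydration-responsive element) and the evening element AAAATATCT. The windows of CYP707A1 and CYP707A3 each held 1 CACGTG, and they shared an unbroken run of 23 bases, tttggtcaaaatctcacacgctc, which starts 61 bases before the gene in CYP707A1 and 162 bases before it in CYP707A3. No other pair of CYP707A windows shared more than 10 bases in a row. ABA1 held 2 separate ACGTG matches and no G-box. The window of CYP707A4, not shown, held 1 ACGTG match and no G-box. Of the 10 members, 5 held ACGTG, 3 held CACGTG, 1 held CCGAC and 0 held the evening element. Among 27412 windows of the same length before protein-coding genes, 22.9% held the ACGTG core, 6.48% held the G-box CACGTG, 11.98% held the CCGAC core and 2.36% held the evening element.

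Library totals ranged between 1966574 and 18213517 counts for mos11 nuclei, between 2547560 and 3719008 for Col-0 nuclei, between 907270 and 1280371 for mos11 cytoplasm and between 556016 and 1160001 for Col-0 cytoplasm. A single count was therefore worth 0.0364 to 0.338 CPM in mos11 nuclei but 1.36 to 2.88 CPM in Col-0 cytoplasm, and low transcripts are known least well there. Col-0 libraries were less alike than mos11 libraries: pairs of mos11 nuclei differed by 1.16 to 2.36 times the sampling variance, pairs of Col-0 nuclei that include replicate 3 by 4.73 to 11.5 times, and replicate 4 differed from replicates 1 and 2 by 4.5 and 6.49 times. In Col-0 replicate 3 the summed level of 10 genes induced by darkness or starvation was the highest in either fraction, with 7310 CPM (nuclear library) and 13240 CPM (cytoplasmic library). Where leaving it out of both fractions ended a call of a member, the value without it stands beside the result. Markers of leaf mesophyll summed to 45175 to 66628 CPM in the cytoplasm and 5 root markers to at most 83.1 CPM in any library, and the 5 vascular markers were detected in every group. MOS11 itself (AT5G02770) averaged 8.31 ± 2.7 CPM in mos11 cytoplasm and 107.8 ± 18 CPM in Col-0 cytoplasm (SD, n = 5 and 4), 13.3-fold lower (adjusted p = 5.8e-13). In nuclei it averaged 169 ± 9.1 CPM in mos11 and 205 ± 15 CPM in Col-0, a log2 fold change of -0.28 ± 0.10 (SE) that did not pass (adjusted p = 0.055). MOS11 overlaps AT5G02760 on the other strand.

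**Figure D1:**
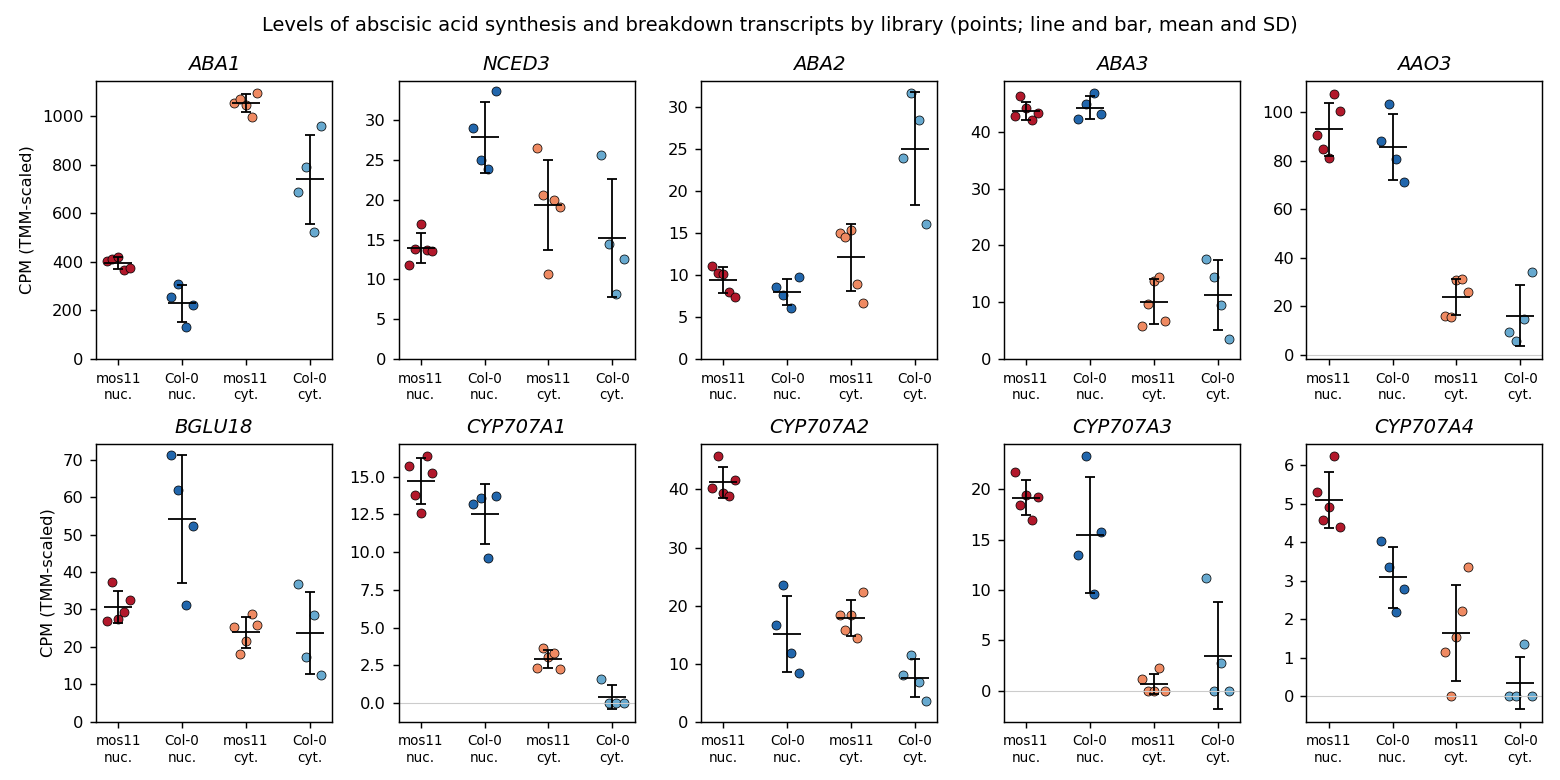
CPM scaled by TMM factors (vertical axes, each panel on its own scale) for the 10 members, in mos11 nuclei (5 libraries), Col-0 nuclei (4), mos11 cytoplasm (5) and Col-0 cytoplasm (4). Each point is 1 library and the line and bar are the mean and SD. CYP707A2 lies at 38.9 to 45.8 CPM in mos11 nuclei and 8.36 to 23.5 CPM in Col-0 nuclei, while NCED3 lies at 11.8 to 17.01 CPM in mos11 nuclei and 23.8 to 33.6 CPM in Col-0 nuclei.

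Levels of different genes were compared as CPM per kb of exonic length. ABA1 was the most abundant member in every group, at 152 ± 8.8 CPM per kb in mos11 nuclei, 87.7 ± 29 in Col-0 nuclei, 404 ± 14 in mos11 cytoplasm and 284 ± 70 in Col-0 cytoplasm (SD, n = 5, 4, 5 and 4), with no overlap with the next gene. In mos11 nuclei CYP707A2 came next (17.7 ± 1.2 CPM per kb), followed by AAO3 (17.1), ABA3 (14.7) and BGLU18 (13.1), each overlapping its neighbour, and, below a gap, by CYP707A3 (9.39), ABA2 (7.92), CYP707A1 (6.96) and NCED3 (5.12), again overlapping in turn, with CYP707A4 apart below them (2.91). In Col-0 nuclei the order after ABA1 was BGLU18 (23.2 ± 7.4 CPM per kb), AAO3 (15.8), ABA3 (14.8), NCED3 (10.2), CYP707A3 (7.59), ABA2 (6.76), CYP707A2 (6.47), CYP707A1 (5.92) and CYP707A4 (1.77). There the gaps between ABA3 and NCED3 and between CYP707A1 and CYP707A4 were free of overlap, and other neighbours below ABA1 overlapped. CYP707A2 thus had rank 2 of 10 in mos11 nuclei and rank 8 in Col-0 nuclei, and NCED3 had rank 9 in mos11 nuclei and rank 5 in Col-0 nuclei. In the cytoplasm BGLU18 (10.3 CPM per kb), ABA2 (10.2), CYP707A2 (7.67) and NCED3 (7.09) followed ABA1 in mos11 without a clear order. In Col-0 cytoplasm ABA2 (21.2 ± 5.7 CPM per kb), BGLU18 (10.2) and NCED3 (5.55) followed, each overlapping the next. CYP707A1, CYP707A3 and CYP707A4 were at the bottom in both, at most 1.70 CPM per kb on average. Each had 0 counts in some libraries of both, except CYP707A1 in mos11 cytoplasm.

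The comparison of mos11 with Col-0 in nuclei asked whether the mutant's nuclei hold other amounts of these RNAs. Transcripts of the breakdown enzyme CYP707A2 and of the epoxidase ABA1 were higher in mos11 nuclei, by 2.73-fold and 1.73-fold, while those of the dioxygenase NCED3 and of the glucosidase BGLU18 were lower, by 1.996-fold and 1.75-fold. These 4 of the 10 members passed an adjusted p of 0.05 (edgeR's quasi-likelihood test, Benjamini-Hochberg over 16207 genes), 2 in each direction, where 20.1% of all genes tested passed, 9.14% higher and 10.9% lower. The median log2 fold change was 0.23 over the members (0.10 without Col-0 replicate 3 in both fractions) and -0.07 over all genes tested. In whole rosettes, fewer cells of a type and less RNA per cell cannot be told apart.

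Among the synthesis genes, NCED3 had 11.8, 13.8, 17.01, 13.7 and 13.5 CPM in mos11 nuclei, against 29.0, 24.96, 23.8 and 33.6 CPM in Col-0 nuclei. The highest mos11 value was under the lowest Col-0 value. The means were 14.0 ± 1.9 and 27.9 ± 4.4 CPM (SD, n = 5 and 4), a log2 fold change of -0.997 ± 0.16 (SE, adjusted p = 8.1e-05). NCED3 is a gene of 1 exon and no intron (chromosome 3, 4831286 to 4834015, minus strand), so its nuclear counts hold no intron of its own. ABA1, which acts before it, had 405, 412, 418, 366 and 376 CPM in mos11 nuclei and 253, 310, 131 and 221 CPM in Col-0 nuclei. The groups did not overlap, the lowest Col-0 value was replicate 3, and the log2 fold change was 0.79 ± 0.16 (adjusted p = 0.00097) with that replicate and 0.60 (adjusted p = 8.1e-05) without it in both fractions. ABA2, ABA3 and AAO3 overlapped between the genotypes and did not pass. ABA2 averaged 9.37 ± 1.6 CPM in mos11 nuclei and 8.00 ± 1.6 CPM in Col-0 nuclei (log2 fold change 0.25 ± 0.19). ABA3 averaged 43.7 ± 1.6 CPM in mos11 nuclei and 44.3 ± 2.0 CPM in Col-0 nuclei (-0.01 ± 0.13), and AAO3 92.8 ± 11 CPM in mos11 nuclei and 85.6 ± 14 CPM in Col-0 nuclei (0.11 ± 0.15).

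Among the breakdown genes, CYP707A2 (chromosome 2, 12494826 to 12499723, minus strand), known from other work for lowering abscisic acid in imbibed seeds, had 40.3, 45.8, 39.4, 38.9 and 41.6 CPM in mos11 nuclei. In Col-0 nuclei it had 16.7, 23.5, 11.8 and 8.36 CPM. The lowest mos11 library was above the highest Col-0 library, and the log2 fold change of 1.45 ± 0.18 (SE, adjusted p = 2.9e-06) was the largest of the 10 members in nuclei. CYP707A1 averaged 14.7 ± 1.5 CPM in mos11 nuclei and 12.5 ± 2.0 CPM in Col-0 nuclei (log2 fold change 0.21 ± 0.15). CYP707A3, known for its role after rehydration, averaged 19.2 ± 1.7 CPM in mos11 nuclei and 15.5 ± 5.8 CPM in Col-0 nuclei (0.27 ± 0.22), and neither gene passed. CYP707A4 had 5.31, 4.58, 4.93, 6.24 and 4.40 CPM in mos11 nuclei and 4.03, 3.35, 2.19 and 2.79 CPM in Col-0 nuclei. Its groups did not overlap, but at 0.68 ± 0.25 it missed the threshold (adjusted p = 0.058). CYP707A4 reached the filter on low counts in mos11 nuclei alone, the group where it is high, so its difference supports nothing further. The transcripts of CYP707A1 and CYP707A3 are 82.9% identical over 1309 bases and other pairs of the family at most 70.1% over shorter stretches. The sources used here do not give how reads matching more than 1 gene were counted.

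As a share of the 4 genes' nuclear counts, CYP707A2 took 48.5% to 55.4% in the mos11 libraries and 20.6% to 36.8% in the Col-0 libraries. Summed over each group it took 1839 of 3427 counts in mos11 nuclei, 53.7% (exact 95% interval 52.0% to 55.3%), and 273 of 843 counts in Col-0 nuclei, 32.4% (29.2% to 35.7%). CYP707A3 took 23.1% in mos11 nuclei and 34.3% in Col-0 nuclei, CYP707A1 17.4% in mos11 and 26.8% in Col-0, and CYP707A4 5.89% in mos11 and 6.52% in Col-0. The intervals cover counting error only. Replicate 2, the deepest library, gave 2271 of the 3427 mos11 nuclear counts, 1258 of them CYP707A2. CYP707A2 had the most counts of the 4 in every mos11 nuclear library. Among the Col-0 nuclei it was first in replicates 1, 2 and 3, by 1 count over CYP707A3 in replicate 2, and behind CYP707A1 and CYP707A3 in replicate 4.

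**Figure D2:**
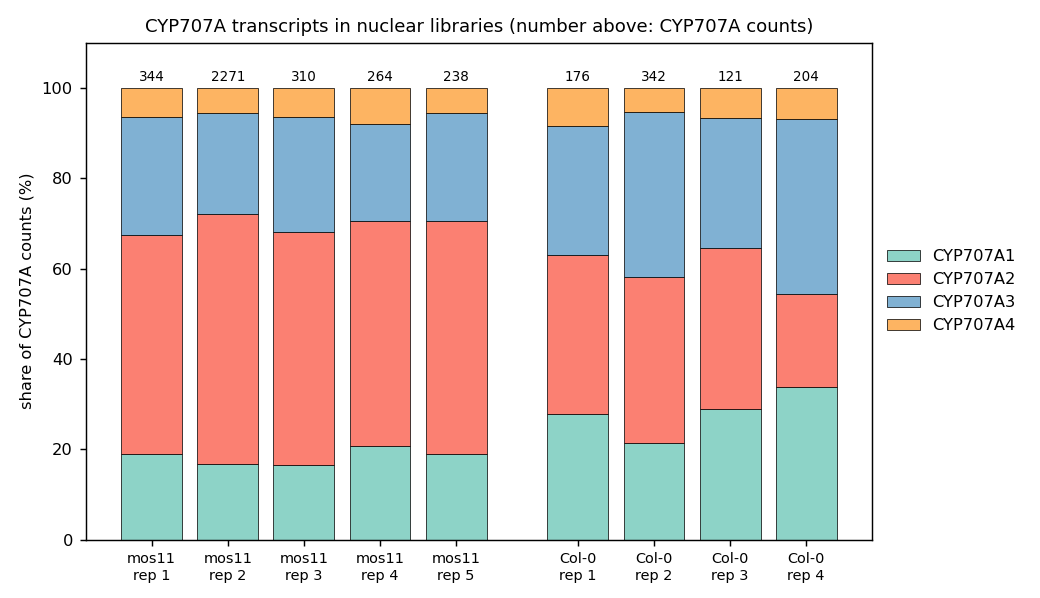
Share of the counts of the 4 CYP707A genes (vertical axis, percent) in each nuclear library, 5 of mos11 and 4 of Col-0, with the summed CYP707A count above each bar. CYP707A2 takes 48.5% to 55.4% in mos11 and 20.6% to 36.8% in Col-0.

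BGLU18 had 26.8, 37.3, 27.4, 29.4 and 32.5 CPM in mos11 nuclei and 71.2, 62.0, 31.2 and 52.3 CPM in Col-0 nuclei. Only Col-0 replicate 3 fell within the mos11 range. The log2 fold change was -0.80 ± 0.17 (SE, adjusted p = 0.0015), and -0.97 (adjusted p = 2.7e-06) without that replicate in both fractions.

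Set against each other, the counts of CYP707A2 and NCED3, which changed in opposite directions, gave 2.32 to 3.41 CYP707A2 counts per NCED3 count in mos11 nuclei (median 3.08) and 0.249 to 0.940 in Col-0 nuclei (median 0.534). In the cytoplasm the ratio was 0.696 to 1.71 in mos11 and 0.286 to 0.833 in Col-0, where the 2 ranges overlapped and rest on 2 to 23 counts of each gene in a library. The pair was picked after its values were seen, and the ratio is a description with no test.

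**Figure D3:**
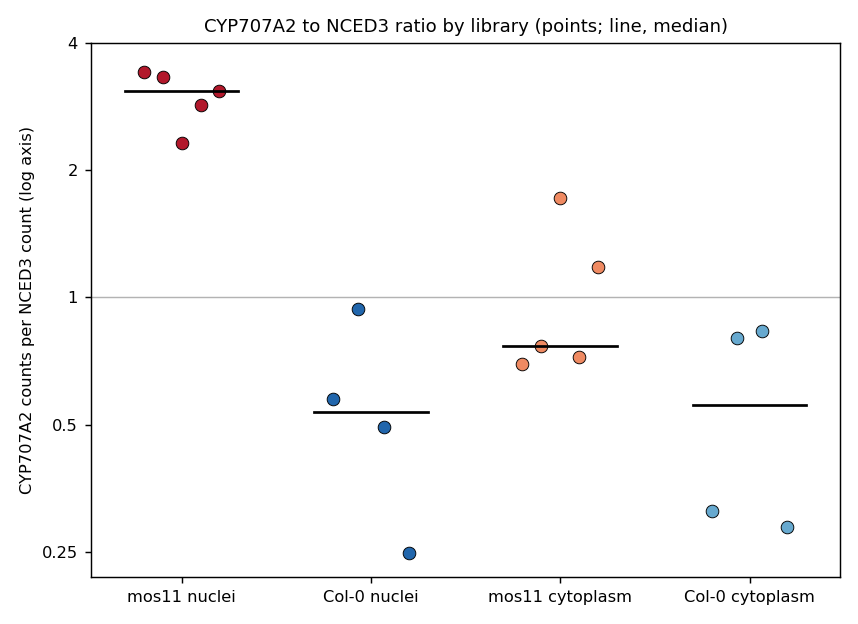
CYP707A2 counts per NCED3 count (vertical log axis) in each library of mos11 nuclei, Col-0 nuclei, mos11 cytoplasm and Col-0 cytoplasm, with the median as a line. The 5 mos11 nuclear libraries lie at 2.32 to 3.41, and every other library lies at 1.71 or below.

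The same comparison in the cytoplasm asked whether levels there differ between the genotypes. ABA1 and CYP707A2 were higher in mos11 cytoplasm, by 1.43-fold and 2.52-fold, and ABA2 was lower by 2.08-fold. These 3 of 10 members passed, where 12.4% of all genes did, 6.02% higher and 6.4% lower. The median log2 fold change was 0.45 over the members (0.25 without Col-0 replicate 3 in both fractions) and 0.04 over all genes. All 3 calls depended on single libraries: between 0 and 3 members passed when 1 library was left out, and only ABA1 passed without Col-0 replicate 3 in both fractions (adjusted p = 0.023 for ABA1, 0.11 for CYP707A2 and 0.077 for ABA2).

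ABA1 had 1053, 1072, 1046, 997 and 1096 CPM in mos11 cytoplasm and 689, 789, 523 and 960 CPM in Col-0 cytoplasm. The groups did not overlap, and the log2 fold change was 0.51 ± 0.17 (SE, adjusted p = 0.043). That call was lost without any 1 of the mos11 libraries or of Col-0 cytoplasmic replicates 1, 2 or 3 (adjusted p up to 0.16), under median-of-ratios scaling (adjusted p = 0.073) and with DESeq2 (adjusted p = 0.092). CYP707A2 had 18.4, 15.7, 18.4, 14.4 and 22.4 CPM in mos11 cytoplasm and 7.99, 11.5, 6.78 and 3.58 CPM in Col-0 cytoplasm, which is 74 and 16 counts in all. Its groups did not overlap either, with a log2 fold change of 1.33 ± 0.44 (adjusted p = 0.048), close to the nuclear 1.45. The call was lost in 13 of the 18 runs that left out 1 library, all but those without Col-0 nuclear replicates 2, 3 or 4, Col-0 cytoplasmic replicate 2 or mos11 nuclear replicate 2, with an adjusted p of 0.017 to 0.14. It was also lost under median-of-ratios scaling, where 0 members were called higher in mos11 cytoplasm.

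ABA2 had 15.0, 14.5, 15.3, 8.88 and 6.72 CPM in mos11 cytoplasm and 24.0, 31.7, 28.5 and 16.1 CPM in Col-0 cytoplasm, or 49 and 56 counts in all. The groups were separated by a narrow gap, and the log2 fold change was -1.05 ± 0.30 (adjusted p = 0.02). The adjusted p was 0.089, 0.057 and 0.055 without Col-0 cytoplasmic replicate 3, mos11 cytoplasmic replicate 4 and mos11 cytoplasmic replicate 5. ABA2 (chromosome 1, 19489794 to 19491650, minus strand) overlaps AT1G52330 and AT1G07803 on the other strand, and AAO3 overlaps AT2G27160. No strand setting of the counting is given, so reads of such partners cannot be told apart.

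The other members did not pass in the cytoplasm. NCED3 had 26.5, 20.6, 10.7, 20.0 and 19.0 CPM in mos11 cytoplasm and 25.6, 14.4, 8.13 and 12.5 CPM in Col-0 cytoplasm, overlapping ranges with a log2 fold change of 0.39 ± 0.32 (adjusted p = 0.48). AAO3 (0.50 ± 0.34), ABA3 (-0.15 ± 0.36) and BGLU18 (-0.05 ± 0.33) overlapped as well. The 3 scarce breakdown genes allow ratios of summed counts only. CYP707A1 had 12 counts in mos11 cytoplasm, at least 2 in each library, and 1 count in Col-0 cytoplasm, a depth-scaled ratio of 6.58 (exact 95% interval 0.973 to 281, counting error only). CYP707A3 had 3 counts in mos11 cytoplasm and 9 in Col-0 cytoplasm, a ratio of 0.183 (0.0318 to 0.732), and 7 of those 9 came from replicate 1. CYP707A4 had 7 counts in mos11 cytoplasm and 1 in Col-0 cytoplasm, a ratio of 3.84 (0.493 to 173). None of the 3 passed the test across all genes (adjusted p = 0.1, 0.17 and 0.36).

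**Figure D4:**
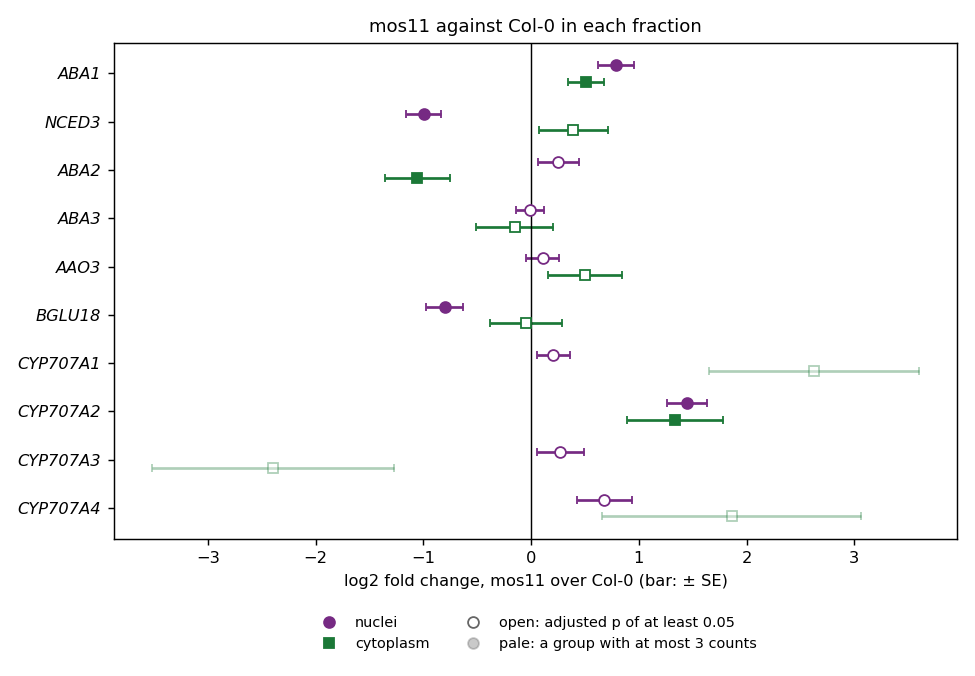
Log2 fold change of mos11 over Col-0 (horizontal axis, bars ± SE) for each member in nuclei (circles) and cytoplasm (squares). Filled symbols passed an adjusted p of 0.05, and pale symbols rest on a group with at most 3 counts. NCED3 lies at -0.997 in nuclei and 0.39 in cytoplasm, and CYP707A2 at 1.45 and 1.33.

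The comparison of nucleus with cytoplasm within each genotype asked whether an RNA's relative level differs between the fractions. Levels are relative to each library's scaled total, so they do not tell in which fraction most of a gene's RNA lies. Of the Col-0 libraries only the cytoplasmic ones were on 2 flow cells, as were the mos11 cytoplasmic libraries and 1 mos11 nuclear library, so fraction and flow cell cannot be told apart in Col-0. In mos11, AAO3, ABA3 and all 4 CYP707A transcripts were higher in the nucleus, and ABA1 and NCED3 were lower there. Thus 8 of 10 members passed, 6 higher and 2 lower, where 76.1% of all genes passed, 40.8% higher and 35.3% lower. In Col-0 all 10 passed, 8 higher in the nucleus and 2 lower (ABA1 and ABA2), against 73.5% of all genes, 40.6% higher and 32.8% lower. CYP707A1, CYP707A3 and CYP707A4, counted in both genotypes, met the filter on low counts almost only in nuclei. The numbers of members higher in nuclei are therefore no support for a nuclear excess. The median log2 fold change was 1.38 over the members and 0.18 over all genes in mos11, and 1.56 and 0.30 in Col-0. Median-of-ratios scaling raised the median of all genes by 0.23 in mos11 and 0.18 in Col-0, so small values here depend on the scaling.

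ABA1 RNA was higher in the cytoplasm in both genotypes. It averaged 395 ± 23 CPM in nuclei and 1053 ± 37 CPM in cytoplasm of mos11 (log2 fold change -1.41 ± 0.16, adjusted p = 5.1e-09), and 229 ± 75 CPM in nuclei and 740 ± 183 CPM in cytoplasm of Col-0 (-1.69 ± 0.18, adjusted p = 2.7e-09). The other plastid enzyme, NCED3, was lower in the nucleus in mos11, at 14.0 ± 1.9 CPM in nuclei against 19.4 ± 5.7 CPM in cytoplasm (-0.50 ± 0.22, adjusted p = 0.044), and higher in the nucleus in Col-0, at 27.9 ± 4.4 against 15.2 ± 7.4 CPM (0.89 ± 0.28, adjusted p = 0.0058). The mos11 call was lost under median-of-ratios scaling (-0.26, adjusted p = 0.27) and with DESeq2. It was also lost with the replicate number as a block, with no filter on low counts and with a filter of at least 1 CPM in 4 libraries. Only the 2 groups compared in the fit, or Col-0 replicate 3 left out in both fractions, kept the call. Leaving out 1 library ended it in 10 of the 18 runs, those without replicates 1, 2, 4 or 5 of either mos11 fraction or without Col-0 cytoplasmic replicates 2 or 4 (adjusted p up to 0.2). The Col-0 call was lost without cytoplasmic replicate 3 (0.64, adjusted p = 0.054).

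ABA3 and AAO3, whose products act in the last step, were several times higher in nuclei than in cytoplasm. ABA3 averaged 43.7 ± 1.6 CPM in nuclei and 10.08 ± 4.0 CPM in cytoplasm of mos11 (log2 fold change 2.14 ± 0.21), and 44.3 ± 2.0 CPM in nuclei and 11.3 ± 6.1 CPM in cytoplasm of Col-0 (2.001 ± 0.26). AAO3 gave 1.96 ± 0.20 in mos11 and 2.36 ± 0.27 in Col-0. Both are long genes with many introns, 19 in the longest ABA3 transcript and 10 in that of AAO3. ABA1, lower in nuclei, has 15 and BGLU18 has 11, and a link of introns to the fraction was not tested. ABA2 showed no call in mos11 (-0.30 ± 0.25, adjusted p = 0.27) and was lower in nuclei of Col-0, at 8.00 ± 1.6 against 25.1 ± 6.7 CPM (-1.61 ± 0.27, adjusted p = 7.2e-06). BGLU18 gave 0.37 ± 0.23 in mos11 (adjusted p = 0.15, but 0.020 under median-of-ratios scaling) and 1.12 ± 0.28 in Col-0 (adjusted p = 0.00074). In mos11 it also passed with DESeq2, with a filter of at least 1 CPM in 4 libraries and with only the 2 groups compared in the fit.

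Among the CYP707A genes, CYP707A2 was 2.32-fold higher in nuclei of mos11 (adjusted p = 3.3e-05) and 2.14-fold higher in nuclei of Col-0 (adjusted p = 0.019). The Col-0 call was lost without Col-0 nuclear replicate 2 (adjusted p = 0.066), Col-0 cytoplasmic replicate 3 (0.050) or Col-0 cytoplasmic replicate 4 (0.075), and with only the 2 groups compared in the fit (0.062). The other 3 passed in both genotypes, with few cytoplasmic counts. In the cytoplasm CYP707A1 and CYP707A4 reached the filter on low counts in 0 libraries, and CYP707A3 in 1. These genes were tested because they are high in nuclei, so their calls between fractions support nothing further. Their summed counts in mos11 nuclei come mostly from replicate 2, the deepest library. From summed counts, the nuclear to cytoplasmic ratio of CYP707A1 was 4.89 (exact 95% interval 2.78 to 9.51) in mos11 and 28.9 (5.13 to 1145) in Col-0. That of CYP707A3 was 26.0 (8.86 to 126) in mos11 and 4.10 (2.13 to 9.06) in Col-0, where its fitted log2 fold change of 1.99 was 3.69 without cytoplasmic replicate 1. That of CYP707A4 was 2.84 (1.36 to 7.16) in mos11 and 7.02 (1.21 to 282) in Col-0.

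**Figure D5:**
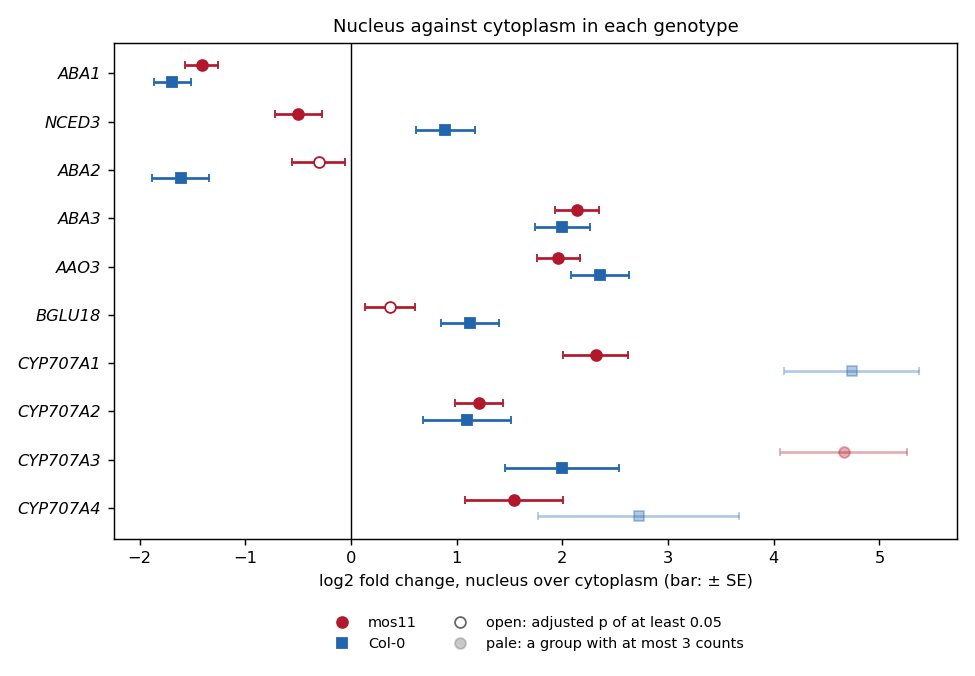
Log2 fold change of nucleus over cytoplasm (horizontal axis, bars ± SE) for each member in mos11 (circles) and Col-0 (squares). Filled symbols passed an adjusted p of 0.05, and pale symbols rest on a group with at most 3 counts. ABA1 lies at -1.41 and -1.69, and NCED3 at -0.50 in mos11 and 0.89 in Col-0.

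Whether the nucleus to cytoplasm ratio differed between the genotypes was tested as an interaction. NCED3 was the only member that passed, with a ratio 2.62-fold lower in mos11 than in Col-0 (log2 fold change -1.39 ± 0.36, adjusted p = 0.044), where 1.58% of all genes passed, 0.66% higher and 0.919% lower. In CPM, cytoplasmic NCED3 was 139% of the nuclear mean in mos11 and 54.4% in Col-0. The call was lost in 13 of the 18 runs that left out 1 library (adjusted p 0.014 to 0.099), without Col-0 replicate 3 in both fractions (adjusted p = 0.080), with the replicate number as a block (adjusted p = 0.067) and under median-of-ratios scaling (adjusted p = 0.053). It was kept without Col-0 nuclear replicates 2 or 3, Col-0 cytoplasmic replicate 1, mos11 nuclear replicate 3 or mos11 cytoplasmic replicate 3. ABA2 came close in the other direction (1.31 ± 0.36, adjusted p = 0.058) and passed under median-of-ratios scaling (1.36, adjusted p = 0.047). CYP707A2, the member with the largest nuclear difference between genotypes, gave 0.11 ± 0.53 (adjusted p = 0.96), an uncertain value that leaves sizeable differences in either direction possible. ABA1 gave 0.28 ± 0.23 and BGLU18 -0.76 ± 0.37, neither past the threshold.

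The surrounding pathway was followed through gene lists, whose counts stand beside 9.14% of all genes higher and 10.9% lower in nuclei, and 6.02% higher and 6.4% lower in the cytoplasm. Upstream of ABA1, 3 of 13 carotenoid genes were higher in mos11 nuclei and 0 lower: PSY, the phytoene synthase, at 197 ± 14 CPM in mos11 and 123 ± 33 CPM in Col-0 (log2 fold change 0.67 ± 0.14, adjusted p = 0.00076), and the beta-carotene hydroxylase genes BCH2 (0.58 ± 0.13, adjusted p = 0.0021) and BCH1 (0.45 ± 0.16, adjusted p = 0.047). The BCH1 groups overlapped in nuclei. The BCH1 call did not hold without Col-0 replicate 3 in both fractions (adjusted p = 0.14), nor without any 1 of Col-0 nuclear replicates 1, 3 or 4, mos11 nuclear replicates 1, 2 or 3 and mos11 cytoplasmic replicates 2 or 5 (up to 0.17). In the cytoplasm BCH1 alone passed, at 50.5 ± 8.8 CPM in mos11 and 23.8 ± 0.97 CPM in Col-0 (1.09 ± 0.23, adjusted p = 0.0022). The list's median log2 fold change was 0.23 in nuclei and 0.02 in cytoplasm. Of the other cleavage and oxidase genes, NCED2, NCED5, NCED6, NCED9 and AAO4 were too scarce to test, with at most 24 counts in any group. The aldehyde oxidase AAO1 was higher in mos11 in nuclei (0.46 ± 0.12, adjusted p = 0.0079) and cytoplasm (0.70 ± 0.16, adjusted p = 0.0045), and AAO2 did not pass in either.

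Of 3 conjugation genes tested, UGT71C5, which glucosylates abscisic acid, was lower in mos11 nuclei, at 9.42 ± 0.96 CPM against 20.6 ± 8.5 CPM in Col-0 nuclei (log2 fold change -1.12 ± 0.20, adjusted p = 0.00021). The glucosidase BGLU33 was lower too, with overlapping groups (-0.76 ± 0.24, adjusted p = 0.026). That call was lost without Col-0 nuclear replicate 2 (adjusted p = 0.12) and without mos11 nuclear replicates 1, 2 or 4 (0.058, 0.052 and 0.058). By edgeR and by DESeq2 0 of the 3 passed in the cytoplasm, and 1 had an unadjusted p under 0.05. The median log2 fold change of the 3 was -0.76 in nuclei and 0.49 in cytoplasm. Of 6 transporter genes, 2 were higher and 2 lower in mos11 nuclei (median log2 fold change 0.11). In the cytoplasm (median 0.78) 0 passed by edgeR and by DESeq2, 2 had an unadjusted p under 0.05, and 1 was higher without Col-0 replicate 3 in both fractions. The importer ABCG40 averaged 6.76 ± 3.3 CPM in mos11 nuclei and 1.22 ± 0.97 CPM in Col-0 nuclei (2.40 ± 0.44, adjusted p = 0.00026). It reached the filter on low counts in 3 mos11 nuclear libraries and 1 mos11 cytoplasmic library and in none of Col-0, so it was tested only because it is high in mos11, and its call supports nothing further. ABCG31 gave 0.52 ± 0.16 with overlapping groups (adjusted p = 0.022). The exporter ABCG25 averaged 16.2 ± 1.2 CPM in mos11 nuclei and 23.9 ± 1.8 CPM in Col-0 nuclei (-0.57 ± 0.14, adjusted p = 0.0043), and ABCG30 gave -0.91 ± 0.23 with overlapping groups (adjusted p = 0.0051). ABCG31 lost its call without Col-0 nuclear replicates 1, 2 or 4 or mos11 nuclear replicate 2 (adjusted p up to 0.070).

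Genes that respond to abscisic acid or are part of its signalling were read as a further list of 24, of which 22 could be tested. In nuclei 9 of 22 were higher in mos11 and 0 lower, where 9.14% of all genes were higher and 10.9% lower. The 22 include HAI2, which reached the filter on low counts in 4 mos11 nuclear libraries, 1 Col-0 nuclear library and 0 cytoplasmic libraries. HAI2 was thus tested through mos11 nuclei, and its place in these counts supports nothing further. COR15A reached the filter in 0 nuclear libraries and was tested through the cytoplasm. The phosphatase gene ABI1 averaged 173 ± 5.3 CPM in mos11 nuclei and 94.3 ± 16 CPM in Col-0 nuclei (log2 fold change 0.87 ± 0.11, adjusted p = 3.1e-06), and its relative HAB1 gave 0.61 ± 0.12 (adjusted p = 0.00061). The caleosin RD20 gave 1.502 ± 0.24 (adjusted p = 6.1e-05) and the homeodomain gene HB7 0.97 ± 0.18 (adjusted p = 0.00023). In the cytoplasm 6 were higher and 2 lower, where 6.02% of all genes were higher and 6.4% lower. ABI1 averaged 133 ± 11 CPM in mos11 cytoplasm and 54.7 ± 11 CPM in Col-0 cytoplasm (1.31 ± 0.16, adjusted p = 2.9e-06), and the transcription factor gene ABF2 gave 1.02 ± 0.21 (adjusted p = 0.0017). The dehydrin gene RAB18 averaged 154 ± 23 CPM in mos11 cytoplasm and 610 ± 401 CPM in Col-0 cytoplasm, with overlapping groups (-1.99 ± 0.34, adjusted p = 0.00025). COR15A, a cold-regulated protective protein of the plastid, averaged 34.7 ± 13 CPM in mos11 cytoplasm and 142 ± 77 CPM in Col-0 cytoplasm (-2.04 ± 0.28, adjusted p = 1.9e-05). Without Col-0 replicate 3 in both fractions, 8 were higher and 2 lower in nuclei and 5 were higher and 3 lower in the cytoplasm. The median log2 fold change of the list was 0.45 in nuclei and 0.41 in cytoplasm.

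Other lists moved with the genotype beside these results. Of 10 genes induced by darkness or starvation, 8 were lower in mos11 in each fraction, also without Col-0 replicate 3, with a median log2 fold change of -1.20 in nuclei and -2.43 in cytoplasm (-0.87 and -1.34 without that replicate), among them the asparagine synthetase ASN1 at 201 ± 64 CPM in mos11 nuclei and 902 ± 442 CPM in Col-0 nuclei. The list summed to 1924 to 2798 CPM in mos11 nuclei and 3329 to 7310 CPM in Col-0 nuclei, and to 763 to 1143 CPM in mos11 cytoplasm and 1780 to 13240 CPM in Col-0 cytoplasm. Of 5 guard cell markers, 3 were higher in mos11 nuclei (FAMA, MYB60 and AT1G22690) and KAT1 was lower (2 higher and 1 lower without Col-0 replicate 3 in both fractions, and with DESeq2), with sums of 215 to 245 CPM in mos11 and 142 to 194 CPM in Col-0. In the cytoplasm 1 was higher, with sums of 93.4 to 127 CPM in mos11 and 55.5 to 95.9 CPM in Col-0. Of 5 mesophyll markers, 3 were lower in mos11 in each fraction, and 4 in the cytoplasm without Col-0 replicate 3, under median-of-ratios scaling and with DESeq2, with nuclear sums of 3001 to 3408 CPM in mos11 and 4173 to 5095 CPM in Col-0. Of 5 epidermis markers, 2 were higher and 1 lower in each fraction, with nuclear sums of 604 to 652 CPM in mos11 and 558 to 613 CPM in Col-0. By edgeR 0 of 5 vascular markers passed in either fraction (1 in each had an unadjusted p under 0.05, and DESeq2 called 1 higher in nuclei), with nuclear sums of 208 to 213 CPM in mos11 and 168 to 210 CPM in Col-0. No marker of these lists was at 0 in a whole group, and their part in the members' differences was not tested.

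Genes whose pattern over the 18 libraries was most like that of a member were ranked by Pearson's r of log2 CPM among the more abundant genes (mean log2 CPM 3 or above). The points share their fraction, so genes with a like nuclear to cytoplasmic difference rank high. The closest were DIS1 for NCED3 (0.804), AT4G09750 for ABA1 (0.987), AT5G17660 for ABA2 (0.908), Cand3 for ABA3 (0.984), UVH3 for AAO3 (0.976) and ASHH3 for BGLU18 (0.861). For the breakdown genes they were SCAMP4 for CYP707A1 (0.983), AT4G20830 for CYP707A2 (0.960), AT5G36290 for CYP707A3 (0.964) and CYP72A11 for CYP707A4 (0.956). NCED3 and BGLU18 had the lowest of these values, and SIGA (0.935) and AT5G19240 (0.933) came next for CYP707A2.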

How the data were processed

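The authors deposited raw counts per gene for 18 libraries, described by 28 sample labels because some libraries were sequenced on 2 flow cells. No source says if such a column is the sum of the 2 runs. Alignment and counting tools named in the submitters' processing notes are STAR (2.7.8a), featureCounts, UMI-tools and Picard, with TAIR10 as the build, and no strand setting is given. Per the labels, rosette fractions were separated by differential centrifugation, spike-in RNA was added, and ribosomal RNA was depleted.

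Tests used edgeR 4.0.16 under R 4.3.3 (TMM scaling, the default filterByExpr filter, quasi-likelihood tests with all 4 groups in 1 fit, Benjamini-Hochberg adjustment over the 16207 genes kept). All 10 members passed the filter. Levels are CPM on TMM-scaled totals, and the spike-in RNA was not used for scaling. Standard errors are approximate, obtained by dividing each log2 fold change by the root of its F statistic. The test of mos11 against Col-0 in nuclei was also run on counts simulated from the fit itself, which says nothing of the other comparisons. Gene positions, exonic lengths and promoter windows come from RefSeq's TAIR10.1 (Python 3.11.15), in which all members were found, and transcript identities from BLAST 2.17.0. The deposited table holds no coordinates. The members and gene lists were chosen with earlier results of these data known.

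Named genes were the 10 members, the genes most correlated with each member, MOS11, and genes of the lists. List genes were taken from up to 4 of each list and comparison with the smallest p, and not all of these are named. Of the dark and starvation list only ASN1 is named, and list genes picked for comparisons between fractions or for the ratio are left out. Marker genes, HAI2 and the scarce NCED and AAO genes are named outside this rule. Counts of replicate pairs varied 1.16 to 11.5 times as much as sampling alone gives, and none was treated as a copy. Replicate numbers paired the samples only between the fractions of Col-0, where deviations of same-numbered libraries correlated at 0.104 to 0.329. Between the fractions of mos11 the correlation was 0.014 to 0.052, and between genotypes -0.089 to 0.102. Alternatives were median-of-ratios scaling, no filter or a CPM filter, DESeq2 1.42.0, only the groups compared, the replicate block, each library left out, and, chosen after the data were seen, Col-0 replicate 3 left out in both fractions.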

Additional observations from a re-analysis of the deposited data

Results flagged for a closer look

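Of 40 combinations of member and group, 3 had a library far from the others, and chance flags about 1 in 20 where values follow a normal distribution. CYP707A1 stood at 9.58 CPM in Col-0 nuclear replicate 3, against 13.2 to 13.7 CPM in the other Col-0 nuclei. In Col-0 cytoplasm, CYP707A1 stood at 1.60 CPM in replicate 1 and CYP707A4 at 1.36 CPM in replicate 3, each from 1 count, with 0 in the other libraries. A lone count among zeros is always flagged, so the stated rate does not apply to these cytoplasmic values. A further result differed between the genotypes by its own test: the nucleus to cytoplasm ratio of NCED3, with an interaction log2 fold change of -1.39 (adjusted p = 0.044).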

How the results depend on the processing

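The 4 nuclear calls between genotypes were kept under every alternative run. Only the groups compared and DESeq2 added CYP707A4 (5 calls). In the cytoplasm 3 members became 1 under median-of-ratios scaling and 1 without Col-0 replicate 3. For the ratio between fractions, 1 call became 0 with the replicate block (NCED3 -1.36, adjusted p = 0.067) and 0 without Col-0 replicate 3, and under median-of-ratios scaling ABA2 passed in place of NCED3. The block, which pairs the fractions of Col-0, kept all 10 calls there and ended 1 other, NCED3 between the fractions of mos11 (adjusted p = 0.071). Leaving out 1 library gave 4 to 5 calls in nuclei, 0 to 3 in cytoplasm, 6 to 8 between fractions of mos11, 8 to 10 in Col-0 and 0 to 1 for the ratio.

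Of 1186 alternative values of members, 17 changed sign, none of them called. ABA3 in nuclei turned to 0.0036 (median-of-ratios), 0.0051 (replicate block), 0.042 (only the groups compared), 0.013 (DESeq2) and 0.017 (without Col-0 replicate 3), and BGLU18 in cytoplasm to 0.045 (without Col-0 replicate 3). Leaving out 1 library gave ABA3 -0.038 to 0.046 in nuclei, -0.44 to 0.22 in cytoplasm and -0.23 to 0.42 for the ratio. It gave BGLU18 -0.26 to 0.24 in cytoplasm and CYP707A2 -0.099 to 0.45 for the ratio. None of 1617 values of list genes picked by the naming rule, including those not named here, changed sign. DESeq2 gave no adjusted p for 5 member values, and CYP707A4 was filtered out in 9 of the 18 runs without 1 library. Depth limits the cytoplasm most, where CYP707A1, CYP707A3 and CYP707A4 had 1 to 12 counts per group.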
